A study of Mus musculus with 2 samples.

Results

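The genes described here encode the major histocompatibility complex (MHC) of the mouse and the proteins that load it with peptides. They were taken from the gene list of the count matrices as every symbol beginning with H2-, together with B2m, Tap1, Tap2, Tapbp, Tapbpl, Erap1, Calr, Canx, Pdia3, Cd74, Ciita and Nlrc5, which gave 46 of 28692 genes. Of these, 31 had 10 or more raw UMIs over both libraries and counted as measured, against 10834 measured genes in the whole table. A UMI, or unique molecular identifier, stands for 1 captured transcript. The 46 comprised 24 class I chains (11 measured), 9 genes of the class I loading pathway (9 measured), 10 class II genes (9 measured), the regulators Nlrc5 and Ciita (1 measured), and H2-Ke6 (measured), which carries the H2- prefix but encodes a steroid dehydrogenase and no MHC chain. In all, 12 of the 46 had 0 UMIs in both libraries, 11 of them class I chains, and 3 had between 1 and 9.

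MHC class I molecules pair a polymorphic or near-invariant heavy chain with beta-2-microglobulin on the surface of nearly all nucleated cells and show peptides from inside the cell to CD8 T cells. The peptides are cut by the proteasome, pumped into the endoplasmic reticulum by the TAP transporter, trimmed there and fitted to the chain by a loading complex, and most of these genes respond to interferon through the coactivator NLRC5. MHC class II molecules show peptides from the endosome to CD4 T cells, depend on the coactivator CIITA, and in the mouse are a property of B cells, dendritic cells and macrophages more than of T cells.

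The cells were CD4 regulatory T cells (Tregs), which hold other immune cells in check and are defined by the factor Foxp3. They came from the spleens of male mice of a B6 strain carrying both the Pparg-Tdt and the Foxp3-Gfp reporter allele, 8 weeks of age, and were counted cell by cell with droplet 3′ sequencing. The PPARg-low library held Tregs with low PPARg signal and the PPARg-negative library Tregs without it. Both groups carried both reporter alleles, and cells of 2 or 3 mice were pooled, so each group was 1 library with no replicate. Every difference below compares 2 libraries, no test between the conditions was possible, and all 95% intervals cover counting error only.

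Barcodes in which more than 10% of UMIs were mitochondrial were set aside, and 1619 PPARg-low and 2633 PPARg-negative cells remained, with 2901710 and 5897260 UMIs and medians of 1517 and 2171 UMIs per cell. Pparg had 43 UMIs in PPARg-low cells and 0 in PPARg-negative cells, and all 8 Treg and T cell markers, Foxp3 among them, were detected in both libraries. The names of the files of the library labelled low carry the tag pos, and the word of the label is used throughout. The libraries shared 5 barcode sequences. Cells with under 20% of their UMIs from ribosomal protein genes, called ribosome-poor here, made up 58.7% of PPARg-low cells (951) and 23.3% of PPARg-negative cells (614). Ribosome-poor cells had medians of 978 and 853 UMIs, and the others, called ribosome-rich, had 2294 and 2455. The main values are therefore also given within these classes.

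The start-site windows of a few members are shown, with letters known to drive class I genes marked. These are a kB site bound by NF-kB factors (GGGATTCCC) and an interferon element (GAAGTGAAA). Also marked are the X2 and Y boxes read by the NLRC5 or CIITA complex (TGACG and ATTGG, 15 to 25 bases apart). H2-K1, H2-D1 and H2-Q7 hold all of these side by side, and the other windows shown hold fewer. B2m and H2-T22 carry a general interferon-stimulated response element (GAAA, any 2 bases, then GAAA) and no GAAGTGAAA. Each window runs from 250 bases before to 50 bases after the RefSeq transcript start (GRCm38.p6), capitals mark the motifs found on either strand, and H2-K1 is shown for the more upstream of its listed starts.
H2-K1 (chr17:34000298-34000597, minus strand): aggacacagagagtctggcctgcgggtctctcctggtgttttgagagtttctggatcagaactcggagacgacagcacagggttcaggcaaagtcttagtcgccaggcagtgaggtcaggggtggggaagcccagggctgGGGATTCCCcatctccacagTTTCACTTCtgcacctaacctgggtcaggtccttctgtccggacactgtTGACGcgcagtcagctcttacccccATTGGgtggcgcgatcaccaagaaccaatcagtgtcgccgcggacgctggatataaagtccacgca
H2-D1 (chr17:35262844-35263143, plus strand): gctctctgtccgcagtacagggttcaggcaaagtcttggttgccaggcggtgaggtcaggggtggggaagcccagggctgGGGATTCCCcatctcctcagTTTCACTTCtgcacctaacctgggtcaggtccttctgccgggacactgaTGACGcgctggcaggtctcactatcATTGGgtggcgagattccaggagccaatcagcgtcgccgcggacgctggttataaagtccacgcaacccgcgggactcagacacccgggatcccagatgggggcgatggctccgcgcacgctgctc
H2-Q7 (chr17:35438905-35439204, plus strand): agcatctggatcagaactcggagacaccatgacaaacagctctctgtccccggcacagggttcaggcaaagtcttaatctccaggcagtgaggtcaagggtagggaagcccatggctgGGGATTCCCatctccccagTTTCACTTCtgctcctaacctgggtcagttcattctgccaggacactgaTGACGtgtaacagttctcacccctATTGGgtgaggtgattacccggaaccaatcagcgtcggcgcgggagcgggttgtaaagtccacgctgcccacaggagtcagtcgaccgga
H2-Q4 (chr17:35379367-35379666, plus strand): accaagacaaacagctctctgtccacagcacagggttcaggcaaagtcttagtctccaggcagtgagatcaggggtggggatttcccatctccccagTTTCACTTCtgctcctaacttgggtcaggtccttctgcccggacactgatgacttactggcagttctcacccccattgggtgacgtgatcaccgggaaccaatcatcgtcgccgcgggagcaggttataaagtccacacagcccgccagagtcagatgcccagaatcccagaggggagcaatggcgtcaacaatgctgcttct
H2-T22 (chr17:36042693-36042992, minus strand): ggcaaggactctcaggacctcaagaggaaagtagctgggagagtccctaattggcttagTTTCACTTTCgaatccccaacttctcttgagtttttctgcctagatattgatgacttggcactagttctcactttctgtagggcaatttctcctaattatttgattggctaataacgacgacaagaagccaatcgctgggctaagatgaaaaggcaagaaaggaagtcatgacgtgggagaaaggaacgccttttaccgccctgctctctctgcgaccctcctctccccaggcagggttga
B2m (chr2:122147437-122147736, plus strand): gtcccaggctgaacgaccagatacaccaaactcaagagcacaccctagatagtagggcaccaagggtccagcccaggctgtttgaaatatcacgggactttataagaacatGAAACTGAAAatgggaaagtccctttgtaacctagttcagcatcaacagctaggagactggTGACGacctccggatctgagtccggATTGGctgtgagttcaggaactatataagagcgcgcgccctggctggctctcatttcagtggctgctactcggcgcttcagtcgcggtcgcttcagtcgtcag
H2-Aa (chr17:34287774-34288073, minus strand): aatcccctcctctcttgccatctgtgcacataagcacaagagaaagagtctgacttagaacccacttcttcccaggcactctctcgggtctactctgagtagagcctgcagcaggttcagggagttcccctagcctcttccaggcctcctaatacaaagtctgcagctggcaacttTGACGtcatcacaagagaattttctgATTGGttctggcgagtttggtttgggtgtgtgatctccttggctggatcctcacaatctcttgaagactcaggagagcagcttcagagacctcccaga

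RefSeq windows were held for 38 of the 46 members and for 10 of the 11 measured class I chains. Among those 10, the kB site stood in 4 (H2-K1, H2-D1, H2-Q6 and H2-Q7), against 0.353% of all 32851 windows. The interferon element stood in 7 of the 10, against 0.505% of all windows. The 2 without it among the more abundant chains, H2-T22 and H2-T23, had the general response element, which 3.44% of all windows hold. The X2 and Y pair stood in H2-K1, H2-D1, H2-Q7 and H2-M3 with gaps of 19 or 20 bases, in B2m with 20 and in H2-Aa with 21, against 0.435% of all windows. H2-Q4 had the interferon element only. The motifs can overlap each other, both strands were searched, and a match is a description of these letters and no more.

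Class I chains were higher in PPARg-low Tregs. Levels are counts per 1e6 UMIs of the library (CPM), taken at transcript 3′ ends and so not divided by length, and ratios are PPARg-low over PPARg-negative. Summed over the 11 measured chains, PPARg-low cells had 42827 UMIs (14759 CPM) and PPARg-negative cells 52424 UMIs (8890 CPM), a ratio of 1.66 (1.64 to 1.68). A gene was called higher or lower when the 2 levels differed by 1.5 times or more and the interval lay wholly on one side of 1. By that rule 7 of the 11 chains were higher and 0 lower, against 23.9% of all measured genes higher and 4.29% lower. The median ratio of the chains was 1.64 and that of all measured genes 1.23. With TMM scaling, which brought the median of all genes to 0.986, the summed chains had a ratio of 1.33 and 1 chain (H2-Q6) was called higher. The share of all measured genes called with TMM was not counted.

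The classical chains H2-K1 and H2-D1, which present peptides to CD8 T cells, gave 83.0% of class I chain UMIs in PPARg-low cells and 82.2% in PPARg-negative cells. H2-K1 (ENSMUSG00000061232, chromosome 17, 33996017 to 34000347, minus strand, mm10) had 16038 UMIs in PPARg-low cells and 18957 in PPARg-negative cells, or 5527 and 3214.5 CPM, a ratio of 1.72 (1.68 to 1.76). H2-D1 (ENSMUSG00000073411, chromosome 17, 35262730 to 35267499, plus strand) had 19522 and 24134 UMIs, or 6728 CPM in PPARg-low cells and 4092 CPM in PPARg-negative cells, a ratio of 1.64 (1.61 to 1.68). Both classical chains were among the 7 higher ones, H2-K1 slightly ahead of H2-D1.

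The Qa-type chains of the Q region are near-invariant class I molecules. H2-Q7 (Qa-2) had 4105 UMIs in PPARg-low cells and 4563 in PPARg-negative cells, or 1415 and 774 CPM (ratio 1.83, 1.75 to 1.91). H2-Q6, its neighbour, had 785 and 752 UMIs, or 270.5 CPM in PPARg-low cells and 127.5 CPM in PPARg-negative cells, the highest ratio of the chains at 2.12 (1.92 to 2.35). H2-Q10, best known as a secreted chain of the liver, was low at 45 and 49 UMIs (15.5 CPM in PPARg-low and 8.31 CPM in PPARg-negative cells) with a ratio of 1.87 (1.22 to 2.86). H2-Q4 stood apart from these, with 710 and 1249 UMIs (244.7 CPM in PPARg-low and 211.8 CPM in PPARg-negative cells) and a ratio of 1.16 (1.05 to 1.27). H2-Q2 had 1 UMI in PPARg-low cells and 10 in PPARg-negative cells, a ratio of 0.203 with an interval of 0.00468 to 1.43.

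In the T and M regions, H2-T23 (Qa-1), which shows leader peptides of class I chains to receptors of NK and CD8 T cells, had 523 UMIs in PPARg-low cells and 695 in PPARg-negative cells, or 180.2 and 117.9 CPM (ratio 1.53, 1.36 to 1.72). H2-M3, which presents N-formylated bacterial peptides, had 290 and 352 UMIs, or 99.9 CPM in PPARg-low cells and 59.7 CPM in PPARg-negative cells (ratio 1.67, 1.43 to 1.96). H2-T22, a ligand of some gamma-delta T cell receptors, differed by less than counting error, at 795 UMIs and 1644 UMIs, or 274.0 CPM in PPARg-low cells and 278.8 CPM in PPARg-negative cells (ratio 0.983, 0.902 to 1.07). H2-T24 had 13 and 19 UMIs and a ratio of 1.39 (0.631 to 2.97). The intervals of H2-T22 and H2-Q4 lay below those of H2-K1, H2-D1, H2-Q6, H2-Q7, H2-T23 and H2-M3.

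Near-identical class I genes can share reads. Exact 90-base matches were sought in the last 400 bases of the longest protein-coding transcript of each chain. Of these stretches, 33.8% of H2-T22 also occurred in H2-T10. Shares of 16.1% of H2-T23, 12.5% of H2-Q4 and 7.72% of H2-Q6 occurred in genes outside the MHC members. The other 7 measured chains had 0% by this count. Other transcripts and shorter or inexact matches were not examined, so sharing for those 7 is not excluded. The effect of this sharing on the levels, that of H2-T22 above all, was not measured. How the counting treated such reads is not given in the sources used here.

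Beta-2-microglobulin and the loading genes moved with the chains. B2m (ENSMUSG00000060802, chromosome 2, 122147686 to 122153083, plus strand), the light chain of class I molecules, had 25059 UMIs in PPARg-low cells and 32536 in PPARg-negative cells, or 8636 and 5517 CPM (ratio 1.57, 1.54 to 1.59). Class I chain UMIs per B2m UMI were 1.71 in PPARg-low cells and 1.61 in PPARg-negative cells, with the opposite order in ribosome-poor cells (1.84 for PPARg-low and 2.02 for PPARg-negative cells). Of the 9 pathway genes 7 were higher and 0 lower, against 23.9 and 4.29% of all measured genes. Their median ratio was 1.67, against 1.23 for all. With TMM scaling 1 of them (Tap1) was called, and the share over all genes was not counted.

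Tap1, a subunit of the peptide transporter, had 852 UMIs in PPARg-low cells and 888 in PPARg-negative cells, or 293.6 and 150.6 CPM, the highest ratio of the pathway at 1.95 (1.77 to 2.15). Tap2, its partner subunit, had 842 and 1051 UMIs, or 290.2 CPM in PPARg-low cells and 178.2 CPM in PPARg-negative cells (ratio 1.63, 1.49 to 1.78). Tapbp (tapasin), which bridges the transporter and the chain, had 1209 and 1469 UMIs, or 417 CPM in PPARg-low cells and 249 CPM in PPARg-negative cells (ratio 1.67, 1.55 to 1.81). The transporter and its bridge were all called higher. Tapbpl, a related peptide editor, missed the size rule at 113.0 CPM in PPARg-low cells and 81.2 CPM in PPARg-negative cells (328 and 479 UMIs; ratio 1.39, 1.21 to 1.61). Erap1, the aminopeptidase that trims peptides, had 90 and 106 UMIs, or 31.02 CPM in PPARg-low cells and 17.97 CPM in PPARg-negative cells (ratio 1.73, 1.29 to 2.31).

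Of the chaperones, which serve many proteins besides class I, Calr (calreticulin) had 1321 UMIs in PPARg-low cells and 1501 in PPARg-negative cells, or 455 and 254.5 CPM (ratio 1.79, 1.66 to 1.93). Canx (calnexin) had 429 and 475 UMIs, or 147.8 CPM in PPARg-low cells and 80.6 CPM in PPARg-negative cells (ratio 1.84, 1.61 to 2.096). Pdia3, a disulfide isomerase, was below the size rule at 483.5 CPM in PPARg-low cells and 326.6 CPM in PPARg-negative cells (1403 and 1926 UMIs; ratio 1.48, 1.38 to 1.59). The coactivator gene of class I, Nlrc5, had 93 and 173 UMIs, or 32.05 CPM in PPARg-low cells and 29.3 CPM in PPARg-negative cells, a ratio of 1.09 (0.840 to 1.41). H2-Ke6, which encodes no MHC chain, had 89.9 CPM in PPARg-low cells and 78.7 CPM in PPARg-negative cells (261 and 464 UMIs; ratio 1.14, 0.979 to 1.33).

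**Figure D1:**
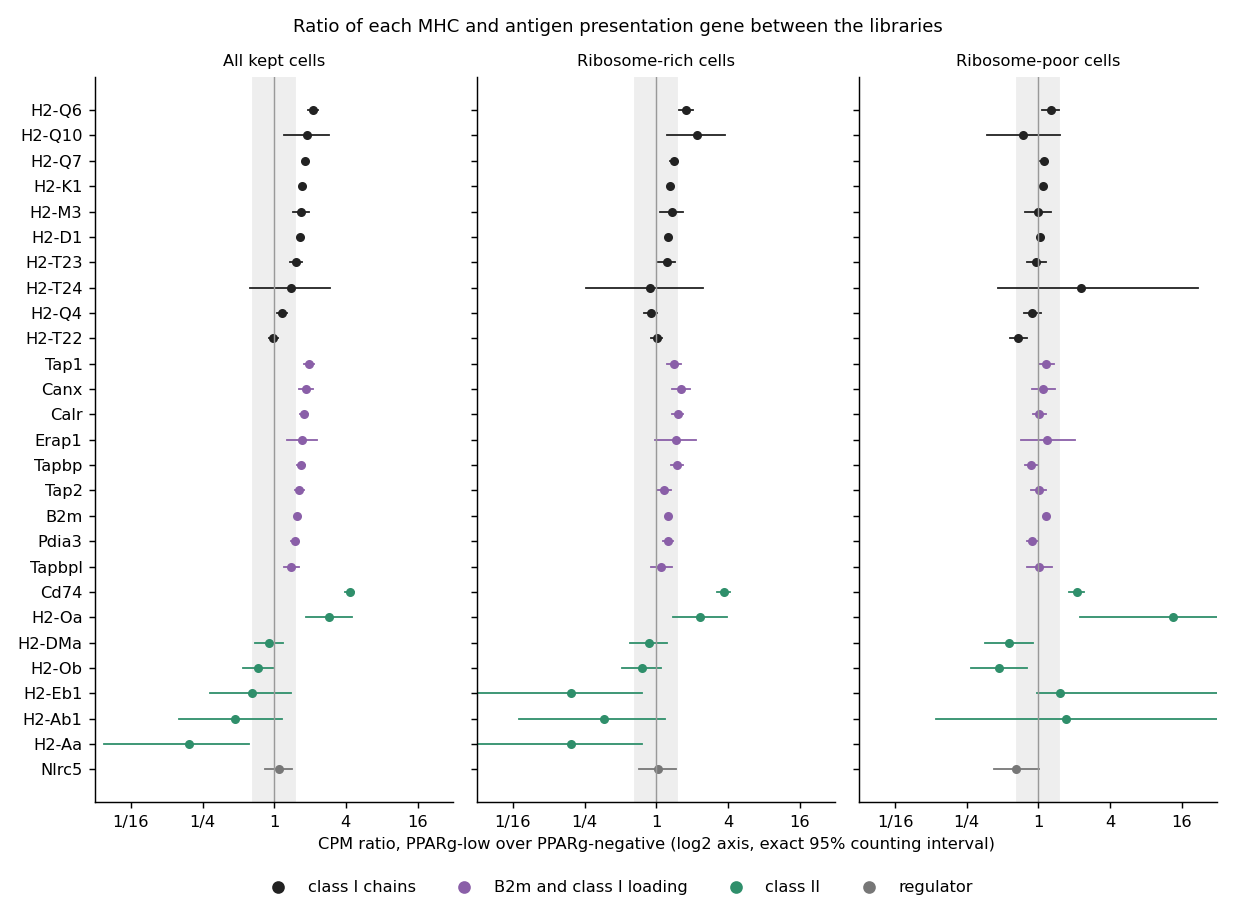
Ratio of CPM in PPARg-low over PPARg-negative Tregs on a log axis for members with 30 or more raw UMIs, with 95% counting intervals (some run past the axis), in all kept, ribosome-rich and ribosome-poor cells; the grey band spans ratios below 1.5 in either direction, and H2-Eb1 in ribosome-poor cells is set against 3 counts because PPARg-negative cells had 0. Cd74 and H2-Oa stand to the right of 1 in both classes of cells, while most class I chains and pathway genes lie near 1 in ribosome-poor cells.

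Within cells of like ribosomal share the class I difference was smaller. In ribosome-rich cells the summed chains had 9276 CPM in PPARg-low cells and 7251 CPM in PPARg-negative cells (ratio 1.28, 1.26 to 1.30). By the same rule 2 of 11 chains, H2-Q6 and H2-Q10, and 2 of 9 pathway genes, Calr and Canx, were higher there, against 17.0% of all measured genes higher and 3.39% lower. In ribosome-poor cells the summed chains had 23058 CPM in PPARg-low cells and 21979 CPM in PPARg-negative cells (ratio 1.05, 1.03 to 1.07), and 0 chains and 0 pathway genes were called in either direction, against 4.98% of all measured genes higher and 4.39% lower.

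Ribosome-poor cells of both libraries thus had the higher class I share of UMIs. They also had fewer UMIs per cell, so the share does not give the class I RNA of a cell. Their median mitochondrial shares were 6.8% (PPARg-low) and 6.9% (PPARg-negative), against 2.7 and 2.3% in ribosome-rich cells. Per cell, class I chains took a median of 2.48% of UMIs in ribosome-poor PPARg-low cells (quartiles 1.82 and 3.13%) and 2.26% in ribosome-poor PPARg-negative cells (1.73 and 2.90%). In ribosome-rich cells the medians were 0.920% in PPARg-low cells (0.692 and 1.19%) and 0.704% in PPARg-negative cells (0.547 and 0.900%). The spread between cells within a class was therefore wider than the difference between the libraries. No kept cell lacked class I chain UMIs, and B2m was at 0 in 8 PPARg-low and 10 PPARg-negative cells. What part the mix of cell classes plays in the difference over all cells was not tested apart from these values.

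Single chains kept different distances within the classes. H2-Q6 had ratios of 1.27 (1.07 to 1.502) in ribosome-poor cells and 1.78 (1.54 to 2.04) among ribosome-rich ones. H2-K1 had 1.09 (1.05 to 1.13) in ribosome-poor cells and 1.31 (1.27 to 1.36) among ribosome-rich ones, and B2m 1.15 (1.12 to 1.18) and 1.25 (1.23 to 1.28). H2-T22 was below 1 in ribosome-poor cells, with 291.9 CPM in PPARg-low cells and 429.8 CPM in PPARg-negative cells (ratio 0.679, 0.578 to 0.799), and had 1.01 in ribosome-rich cells (0.905 to 1.12). Tapbp, H2-T23, H2-M3 and H2-Q10 turned to ratios below 1 in ribosome-poor cells (0.864, 0.963, 0.992 and 0.746), and among these 4 the interval of Tapbp excluded 1 (0.767 to 0.972). Pdia3 (0.889, 0.795 to 0.994) and H2-Q4 (0.892, 0.763 to 1.04), which had not met the size rule over all cells, were below 1 there too.

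Shares of cells with a UMI were compared at an equal depth of 750 UMIs per cell, drawn at random, over 1381 PPARg-low and 2394 PPARg-negative cells; 238 and 239 cells were too shallow. H2-Q7 was seen in 867 PPARg-low cells (62.8%, 60.2 to 65.3%) and in 1050 PPARg-negative cells (43.9%, 41.9 to 45.9%), with 85.9 and 75.1% before thinning. H2-Q6 was seen in 21.9% of PPARg-low cells and 10.1% of PPARg-negative cells, and Tap1 in 20.1 and 11.9%. H2-T22 was seen in 19.7% of PPARg-low cells and 20.3% of PPARg-negative cells, and before thinning in 34.6 and 44.4%, where the deeper PPARg-negative library stood higher. H2-K1 (95.1% of PPARg-low and 86.5% of PPARg-negative cells) and B2m (99.2 and 96.9%) were close to every cell. As a background, the B cell gene Cd79a was seen in 0.217% of PPARg-low cells and 0.0835% of PPARg-negative cells while Lyz2, of myeloid cells, was seen in 0.0724 and 0.125%, all at the same depth.

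**Figure D2:**
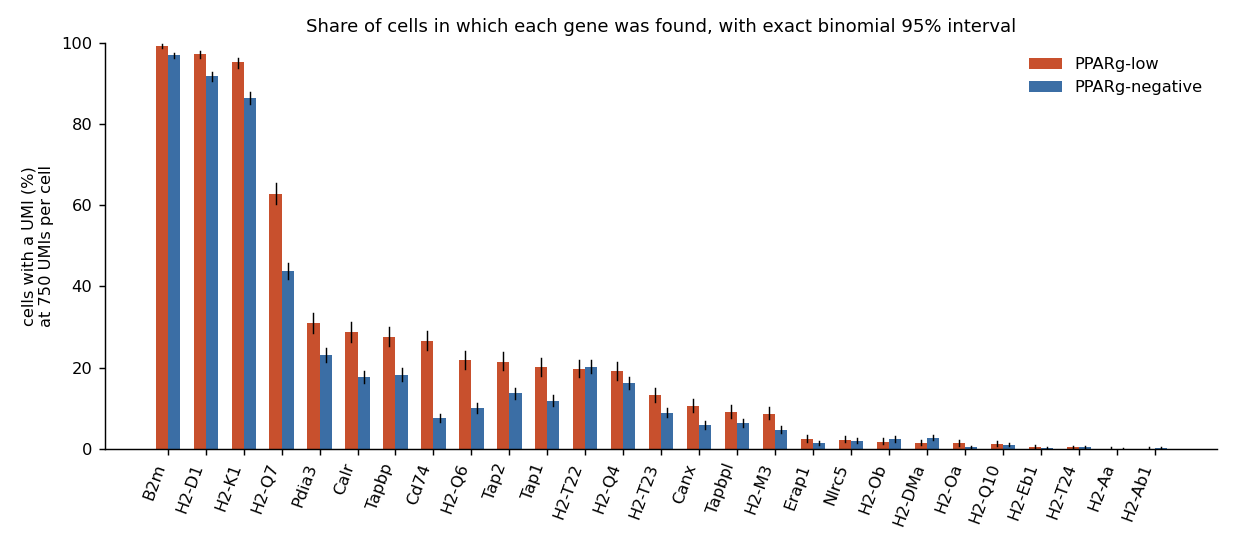
Percent of cells with a UMI of each of the members shown after thinning every cell to 750 UMIs, in PPARg-low and PPARg-negative Tregs, with exact binomial 95% intervals (counting error only). Cd74 was seen in 26.7% of PPARg-low and 7.56% of PPARg-negative cells, while H2-T22 stood at 19.7 and 20.3%.

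Of the class II genes, Cd74 was far higher in PPARg-low Tregs and the rest was sparse. Cd74 (ENSMUSG00000024610, chromosome 18, 60803848 to 60812652, plus strand) encodes the invariant chain, which escorts class II molecules to the endosome and also serves as a receptor of the cytokine MIF. It had 1509 UMIs in PPARg-low cells and 712 in PPARg-negative cells, or 520.0 and 120.7 CPM (ratio 4.31, 3.94 to 4.71). Cd74 held 87.1% of class II UMIs in PPARg-low cells and 58.7% in PPARg-negative cells. By the rule used above 2 of 9 measured class II genes were higher (Cd74 and H2-Oa) and 1 lower (H2-Aa), and the median ratio was 0.734, against 23.9% of all measured genes higher, 4.29% lower and a median of 1.23. The count of higher class II genes is near that background share. Summed class II UMIs had a ratio of 2.90 (2.70 to 3.13), and without Cd74 the ratio was 0.909 (0.773 to 1.07).

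Cd74 was higher in both classes of cells. In ribosome-poor cells it had 823.7 CPM in PPARg-low cells and 393.2 CPM in PPARg-negative cells (ratio 2.09, 1.82 to 2.41). In ribosome-rich cells it had 319.4 CPM in PPARg-low cells and 86.6 CPM in PPARg-negative cells (ratio 3.69, 3.25 to 4.18). After thinning, a Cd74 UMI was seen in 368 PPARg-low cells (26.7%, 24.3 to 29.1%) and in 181 PPARg-negative cells (7.56%, 6.53 to 8.69%), with 40.8 and 13.4% before thinning. Its UMIs were spread thinly over many PPARg-low cells: of the 661 kept cells with any, 313 had 1, 273 had 2 to 4, 71 had 5 to 9 and 4 had 10. Of 353 PPARg-negative cells with any, 224 had 1, 106 had 2 to 4, 20 had 5 to 9 and 3 had 10 or more, up to 83 in 1 cell.

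The H2-A and H2-E chain genes, H2-Aa and H2-Ab1 (I-A) and H2-Eb1 (beta chain of I-E), were near the limit of detection. The members held no gene for the alpha chain of I-E, and surface protein was not measured. H2-Aa had 3 UMIs in PPARg-low cells and 32 in PPARg-negative cells (1.03 and 5.43 CPM; ratio 0.191, 0.0373 to 0.609). H2-Ab1 had 6 and 26 UMIs, or 2.07 CPM in PPARg-low cells and 4.41 CPM in PPARg-negative cells (ratio 0.469, 0.158 to 1.17). H2-Eb1 had 10 and 31 UMIs, or 3.45 CPM in PPARg-low cells and 5.26 CPM in PPARg-negative cells (ratio 0.656, 0.287 to 1.37). H2-Eb2 had 0 UMIs in both libraries, and Ciita, the class II coactivator gene, had 3 in PPARg-low cells and 0 in PPARg-negative cells.

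These chain UMIs lay in few cells. In PPARg-negative cells, 81 of the 89 H2-Aa, H2-Ab1 and H2-Eb1 UMIs were in 2 cells. The first, of 8622 UMIs, held 58 chain UMIs, 83 of Cd74, 25 of Cd79a, 2 of Ms4a1 and 1 of Lyz2. The second, of 2840 UMIs, held 23 chain UMIs and 17 of Cd74 with 0 of Cd79a, Ms4a1 and Lyz2. Both also had T cell receptor or CD3 UMIs (Trac 1 and 5, Cd3d 4 and 3). In PPARg-low cells the 19 chain UMIs were spread over 17 cells, with at most 2 in a cell. The largest PPARg-low holder, with 15 chain and 33 Cd74 UMIs beside 3 of Cd79a and 1 of Ms4a1, had 936 UMIs and was among the barcodes left out for mitochondrial share (11.4%).

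Without the 2 PPARg-negative cells, which were singled out after their values were seen because they held 20 or more class II UMIs, the order of the chains turned round. The 3 chains then summed to 19 UMIs in PPARg-low cells and 8 in PPARg-negative cells (6.55 and 1.36 CPM; ratio 4.82, 2.01 to 12.7), against 0.434 (0.250 to 0.718) with them. Cd74 then had a ratio of 5.001 (4.55 to 5.50), with 520.0 CPM in PPARg-low cells and 104.0 CPM in PPARg-negative cells. The call of H2-Aa as lower therefore rested on 2 cells.

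**Figure D3:**
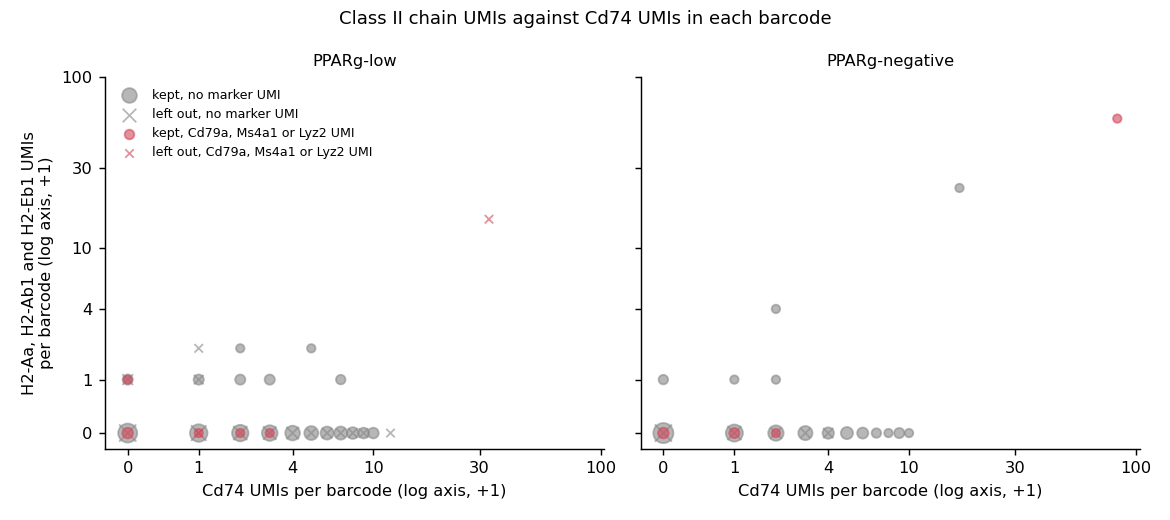
Summed H2-Aa, H2-Ab1 and H2-Eb1 UMIs against Cd74 UMIs in each barcode, PPARg-low left and PPARg-negative right, both axes on a log scale of UMIs plus 1; barcodes with a UMI of Cd79a, Ms4a1 or Lyz2 and barcodes left out by the mitochondrial filter have their own markers. In PPARg-negative cells 2 barcodes hold 81 of 89 chain UMIs, and in PPARg-low cells no kept barcode holds more than 2 chain UMIs.

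Cells with a UMI of Cd79a or Ms4a1 (B cells) or Lyz2 (myeloid cells) held little of the class II signal of either library, apart from 1 PPARg-negative cell. Of kept cells, 8 PPARg-low and 9 PPARg-negative cells had such a UMI. They held 0.462% of class II UMIs in PPARg-low cells (0.200 to 0.908%), beside 0.429% of all UMIs, and 12.9% in PPARg-negative cells (11.1 to 14.96%), beside 0.522% of all UMIs. Of the 157 PPARg-negative UMIs behind that share, 151 lay in the 1 cell of 8622 UMIs described above. For Cd74 alone the shares were 0.398% in PPARg-low cells (6 of 1509 UMIs) and 12.4% in PPARg-negative cells (88 of 712, with 83 in the same cell). For the 3 H2-A and H2-E chains they were 5.26% in PPARg-low cells (1 of 19) and 65.2% in PPARg-negative cells (58 of 89), all 58 in that cell. Over all barcodes, 10 PPARg-low and 9 PPARg-negative barcodes had a marker UMI and held 2.91 and 12.1% of class II UMIs.

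Over the whole marker lists, 7 of 9 B cell markers were detected in each library, with Pax5 at 0 in both, and the list summed to 45.8 CPM in PPARg-low cells and 49.5 CPM in PPARg-negative cells. Of 9 myeloid markers 8 were detected in PPARg-low cells (285 CPM; Itgax at 0) and 6 in PPARg-negative cells (149.4 CPM; Itgax, Csf1r and Spi1 at 0). Of 5 dendritic markers 1 was detected in PPARg-low cells (2.41 CPM) and 3 in PPARg-negative cells (0.678 CPM), with Flt3 and Clec9a at 0 in both. Cells with any of these 23 markers made up 42.0% of PPARg-low and 31.9% of PPARg-negative cells and held 53.5 and 51.5% of class II UMIs, beside 49.8 and 36.2% of all UMIs. The broad list includes genes such as Cst3, which was seen in 36.4% of PPARg-low and 27.0% of PPARg-negative cells without H2-A or H2-E chain UMIs. For the H2-A and H2-E chains alone, cells with any of these markers held 84.2% of UMIs in PPARg-low cells (16 of 19). In PPARg-negative cells they held 93.3% (83 of 89), with 81 UMIs in the 2 cells described above. The part of these markers in the Cd74, H2-A and H2-E chain differences was not tested beyond these shares.

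The 17 PPARg-low cells with an H2-A or H2-E chain UMI also held T cell transcripts. All 17 had a Trac UMI and 16 had Cd3e, against 90.01 and 85.2% of the other PPARg-low cells, at a median of 1436 UMIs against 1520. Foxp3 was seen in 4 of the 17 (23.5%), against 5.81% of the others. Cd74 was seen in 13 of the 17 (76.5%), against 40.5% of the others. The myeloid genes Fcer1g and Tyrobp were seen in 3 and 2 of the 17, against 0.687 and 0.437% of the others. Of the B cell genes, Cd79b was seen in 2, against 4.56% of the others. Ly6d and Cd22 were seen in 1 each, against 0 and 0.125%. Lyz2 and Zbtb46 were also seen in 1 each, against 0.125 and 0.375%, and Cst3 in 9, against 36.4%. The other markers of the B cell, myeloid and dendritic lists were seen in 0 of the 17. With 15 of the 17 holding a single chain UMI, capture of free RNA and transcription in the cell cannot be told apart for these cells.

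The peptide editors of class II showed no common direction. H2-Oa, a chain of the inhibitor H2-O, had 52 UMIs in PPARg-low cells and 37 in PPARg-negative cells, or 17.9 and 6.27 CPM (ratio 2.86, 1.84 to 4.48). Its partner H2-Ob had 65 and 180 UMIs, or 22.4 CPM in PPARg-low cells and 30.5 CPM in PPARg-negative cells (ratio 0.734, 0.544 to 0.980). The intervals of these partner chains did not overlap. In ribosome-poor cells H2-Oa had 24 UMIs in PPARg-low cells and 1 in PPARg-negative cells (ratio 13.6, 2.22 to 561), and in ribosome-rich cells its ratio was 2.33 (1.37 to 3.93). H2-Ob had ratios of 0.468 (0.273 to 0.795) in ribosome-poor cells and 0.760 (0.515 to 1.10) among ribosome-rich ones.

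H2-DMa, the alpha chain of the editor H2-DM, which exchanges the CLIP fragment of the invariant chain for peptides, had 81 UMIs in PPARg-low cells and 182 in PPARg-negative cells, or 27.9 and 30.9 CPM (ratio 0.905, 0.687 to 1.18). It was lower in ribosome-poor cells (ratio 0.568, 0.357 to 0.904). Its beta chains were scarce, with 4 UMIs each in PPARg-low and PPARg-negative cells for H2-DMb1 and with 3 and 9 for H2-DMb2. H2-DMa and H2-Ob UMIs were scattered, with at most 2 and 4 UMIs in a PPARg-low cell and 3 each in a PPARg-negative cell. In ribosome-poor cells 2 of the 9 class II genes were called higher (Cd74 and H2-Oa) and 2 lower (H2-DMa and H2-Ob), against 4.98 and 4.39% of all measured genes. In ribosome-rich cells 2 were higher (Cd74 and H2-Oa) and 2 lower (H2-Aa and H2-Eb1, each with 2 PPARg-low and 31 PPARg-negative UMIs), against 17.0 and 3.39% of all measured genes. These lower calls rested on the 2 ribosome-rich PPARg-negative cells described above, which held 20 and 10 H2-Aa UMIs and 20 and 7 H2-Eb1 UMIs. Without them, over all kept cells, H2-Eb1 had 10 UMIs in PPARg-low cells and 4 in PPARg-negative cells (ratio 5.07, 1.46 to 22.1), and H2-Aa had 3 and 2.

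Other genes of the pathway moved less. Of 25 listed genes 23 were measured, of which 5 were higher and 0 lower, against 23.9 and 4.29% of all measured genes, and the median ratio was 1.21, against 1.23 for all. The list as a whole was therefore near the background, and the values below describe single genes. The immunoproteasome subunits, which cut peptides for class I and are known interferon targets, stayed close to 1: Psmb8 had 703.0 CPM in PPARg-low cells and 734.9 CPM in PPARg-negative cells (ratio 0.957, 0.907 to 1.01). Psmb10 had a ratio of 1.02 (0.925 to 1.13), and Psmb9, whose start-site window overlaps that of Tap1 on the other strand, had 1.14 (1.04 to 1.26) beside 1.95 for Tap1. Psme2, a proteasome activator subunit, had 567.9 CPM in PPARg-low cells and 411.7 CPM in PPARg-negative cells (ratio 1.38, 1.30 to 1.47).

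The regulator Irf1 (1.21, 1.07 to 1.37) and the class II promoter factor Rfx5 (1.36, 0.792 to 2.28) lay close to the median ratio of all genes. Of the 5 higher genes, the endosomal protease Lgmn had 96.2 CPM in PPARg-low cells and 28.0 CPM in PPARg-negative cells (279 and 165 UMIs; ratio 3.44, 2.83 to 4.19), with a ratio of 1.003 in ribosome-poor cells and one of 4.56 in the ribosome-rich ones. The thiol reductase Ifi30 had a ratio of 1.88 (1.39 to 2.54), Sppl2a, which cleaves the remnant of the invariant chain, 1.67 (1.31 to 2.12), the class I-like Mr1 1.59 (1.04 to 2.41) and Creb1, a factor of the X2 box, 1.58 (1.29 to 1.93). In ribosome-poor and ribosome-rich cells Ifi30 had 0.710 and 2.07, and Creb1 0.802 and 1.72. Sppl2a had 1.23 and 1.195 and Mr1 2.08 and 1.29 in the same order, and neither of these was called in either class. Ctss, the protease that cuts the invariant chain, had 375.3 CPM in PPARg-low cells and 306.4 CPM in PPARg-negative cells (ratio 1.23, 1.14 to 1.32). In ribosome-poor cells 0 of the 23 genes were called in either direction.

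Cells were next sorted by interferon-induced genes that are not members (22 genes, such as Isg15, Ifit1 and Irf7) after thinning to 750 UMIs. PPARg-low cells had a mean of 2.31 interferon list UMIs and PPARg-negative cells 2.09, and 482 of 1381 and 772 of 2394 cells had 3 or more. Tap1 was higher in cells with 3 or more than in cells with 0 in both libraries: in PPARg-low cells 347.4 against 192.7 CPM (ratio 1.80, 1.42 to 2.31) and in PPARg-negative cells 198.4 against 122.4 CPM (1.62, 1.33 to 1.98). The summed immunoproteasome subunits had 1.30 (1.17 to 1.45) in PPARg-low cells and 1.25 (1.17 to 1.34) in PPARg-negative cells. Among ribosome-poor cells Tap1 had 1.78 (1.305 to 2.46) in PPARg-low cells and 1.24 (0.820 to 1.92) in PPARg-negative cells. Among ribosome-rich cells it had 1.92 (1.32 to 2.885) and 1.52 (1.22 to 1.91).

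The summed class I chains, mostly H2-K1 and H2-D1, differed less along this order than Tap1. They had 13389 CPM in PPARg-low cells with 3 or more interferon UMIs and 13823 CPM in those with 0 (ratio 0.969, 0.940 to 0.998), and 9220 and 7863 CPM in PPARg-negative cells (1.17, 1.14 to 1.203). Single chains departed from the sum. H2-T23 had 1.11 (0.836 to 1.48) in PPARg-low cells and 1.61 (1.28 to 2.03) in PPARg-negative cells, and H2-T22 had 1.101 (0.891 to 1.37) and 1.36 (1.18 to 1.57). Among ribosome-poor cells the sum had 0.953 (0.915 to 0.992) in PPARg-low and 0.953 (0.9005 to 1.009) in PPARg-negative cells. Among ribosome-rich cells it had 1.02 (0.976 to 1.07) and 1.105 (1.074 to 1.137). In ribosome-poor PPARg-negative cells H2-T23 had 0.912 (0.551 to 1.56) and H2-T22 1.16 (0.764 to 1.825). Their ratios in ribosome-rich PPARg-negative cells were 1.68 (1.30 to 2.19) and 1.34 (1.15 to 1.565). Cd74 had 501.6 CPM in PPARg-low cells with 3 or more and 516 CPM in those with 0 (0.972, 0.831 to 1.14). In PPARg-negative cells it had 175.4 and 87.0 CPM (2.02, 1.61 to 2.54), or 122.7 CPM and a ratio of 1.41 (1.11 to 1.80) without the 2 cells of 20 or more class II UMIs. Within the ribosomal classes Cd74 went different ways: in ribosome-rich cells the step was 1.305 (1.004 to 1.71) in PPARg-low cells and 1.31 (0.965 to 1.81) in PPARg-negative cells without those 2 cells, and 2.36 (1.78 to 3.16) with them. In ribosome-poor cells it was 0.828 (0.678 to 1.01) in PPARg-low cells and 0.891 (0.611 to 1.32) in PPARg-negative cells. The difference between the libraries in class I stood in each interferon group: the summed chains had ratios of 1.76 in cells with 0, 1.76 with 1 to 2 and 1.45 with 3 or more.

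Cells were also sorted by whether an effector Treg list (15 genes, such as Icos, Tigit and Prdm1) or a resting list (11 genes, such as Ccr7, Lef1 and Tcf7) had more UMIs after thinning. Effector UMIs were ahead in 1173 PPARg-low cells (84.9%) and 579 PPARg-negative cells (24.2%), and resting UMIs in 105 (7.60%) and 1388 (58.0%). Class I chains and Cd74 differed along this order in both libraries, while the class II genes without Cd74 had effector over resting ratios of 1.17 (0.698 to 2.09) in PPARg-low cells and 1.12 (0.899 to 1.39) in PPARg-negative cells. Summed class I chains in effector over resting cells had 15025 against 9691 CPM in PPARg-low cells (ratio 1.55, 1.49 to 1.62) and 11846 against 7592 CPM in PPARg-negative cells (1.56, 1.53 to 1.59). Cd74 had 594.4 against 141 CPM in PPARg-low cells (4.22, 3.002 to 6.11) and 291.2 against 66.7 CPM in PPARg-negative cells (4.37, 3.69 to 5.19; 6.53, 5.36 to 7.997 without the 2 cells of 20 or more class II UMIs).

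Within cells of the same sort the 2 libraries were closer. For class I chains PPARg-low over PPARg-negative was 1.27 (1.24 to 1.29) in effector cells, 1.22 (1.17 to 1.27) in cells with equal UMIs and 1.28 (1.22 to 1.33) in resting cells, against 1.66 over all cells. For Cd74 it was 2.04 (1.81 to 2.30), 2.102 (1.47 to 2.97) and 2.12 (1.43 to 3.04) in the same order, against 4.31 over all cells. The resting value of Cd74 was 3.32 (2.21 to 4.85) without the PPARg-negative cell of 83 Cd74 UMIs. The ribosome-poor share differed along with these groups, at 57.7% of PPARg-low and 43.9% of PPARg-negative effector cells and 20.95 and 7.56% of resting cells.

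Among ribosome-rich cells alone, class I chains in effector over resting cells had 1.14 (1.08 to 1.2) in PPARg-low and 1.14 (1.11 to 1.17) in PPARg-negative cells, and Cd74 had 2.90 (1.97 to 4.44) and 3.21 (2.61 to 3.94), or 4.87 (3.82 to 6.22) in PPARg-negative cells without the 2 cells of 20 or more class II UMIs. Ribosome-rich effector cells had 372.3 CPM of Cd74 in the PPARg-low library and 199.6 CPM in the PPARg-negative library (ratio 1.86, 1.56 to 2.23), and ribosome-poor effector cells had 898.4 and 535.6 CPM (1.68, 1.42 to 1.98). Class I chains in ribosome-poor effector cells had 22436 CPM in the PPARg-low library and 21873 CPM in the PPARg-negative library (1.03, 0.999 to 1.05). These cells were thus within counting error of each other for class I and apart for Cd74. The part of the effector genes in the difference between the libraries was not tested beyond these groups.

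**Figure D4:**
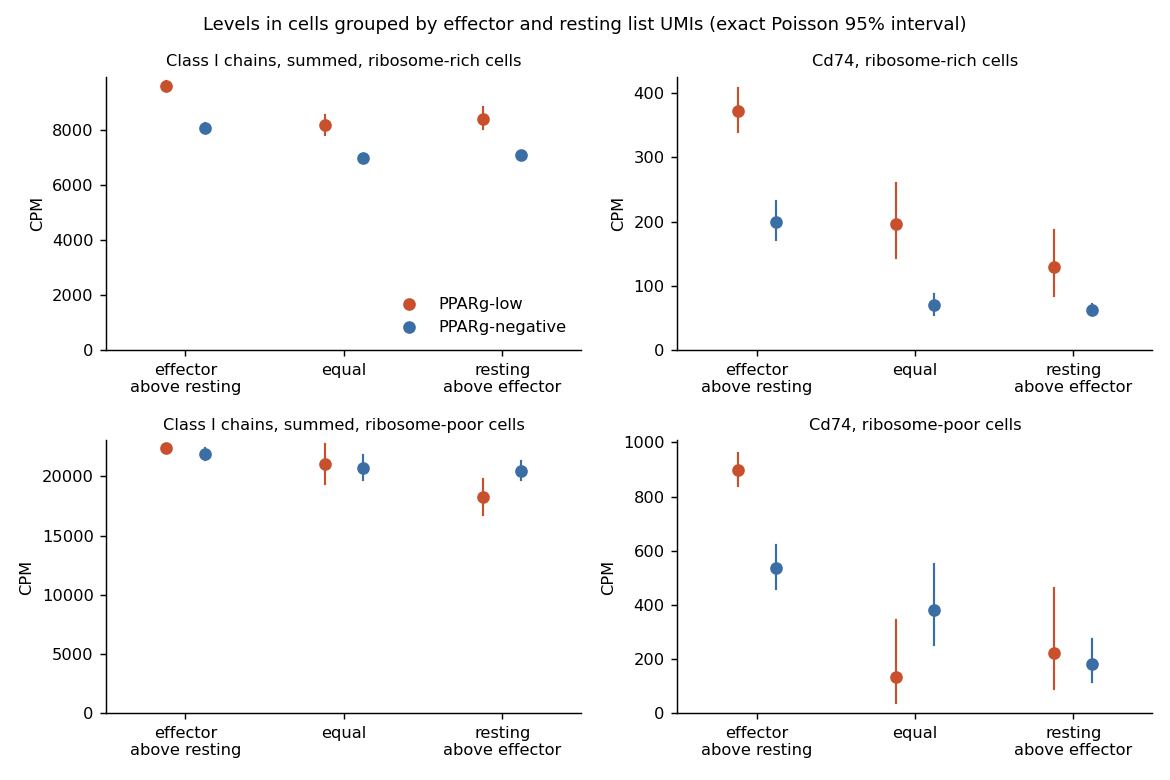
CPM of summed class I chains (left) and Cd74 (right) in ribosome-rich (top) and ribosome-poor (bottom) cells, grouped by whether the effector or the resting list had more UMIs; points are PPARg-low and PPARg-negative libraries with exact Poisson 95% intervals, and the vertical axes start at 0. In ribosome-rich effector cells Cd74 stands at 372.3 CPM in PPARg-low and 199.6 CPM in PPARg-negative cells, and in ribosome-poor resting cells class I chains stand at 18229 CPM in PPARg-low and 20494 CPM in PPARg-negative cells.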

How the data were processed

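Tregs pooled from 2 or 3 spleens were encapsulated with the 10x Chromium 3′ v2 chemistry, per the labels' protocols. For each of the 2 libraries the authors deposited raw UMI counts per gene and barcode, with no normalization recorded; Cell Ranger 2.1.0 and mm10 are named in the submitters' processing notes, and sources used here do not give the counting settings.

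The filter at 10% mitochondrial UMIs removed 373 PPARg-low and 269 PPARg-negative barcodes; none had under 200 genes. Scrublet (scanpy 1.11.5) marked 11 (0.679%) PPARg-low and 8 (0.304%) PPARg-negative cells, which were kept. UMIs were summed per library as CPM, per 1e6 UMIs, and ratios were given exact conditional binomial 95% intervals, shares exact Clopper-Pearson intervals and levels exact Poisson intervals. These cover counting error only. A gene at 0 in 1 library entered ratios at 3 counts. With 1 library per group no p-value was computed, and calls went by size (1.5). Groups by interferon, effector and resting UMIs were set on counts thinned to 750 UMIs (seed 1) and levels taken from full counts. Motifs were searched in RefSeq windows of 300 bases (GRCm38.p6), gene positions came from GENCODE M21, and TMM factors from edgeR 4.0.16 in R 4.3.3. Scripts (numpy 2.4.6, scipy 1.17.1 and pandas 2.3.3 under Python 3.11.15) were tested on simulated data.

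Every member with 30 or more raw UMIs is named with its values, those with 10 to 29 with their UMIs, and of 25 other pathway genes any measured one may be named. The members, lists and the split at 20% ribosomal UMIs were chosen with earlier results of these data known, and leaving out cells of 20 or more class II UMIs was added after seeing the data. Alternatives covered cell filters, scaling, cell weights, doublets, marker cells, thresholds and thinning. Some results for listed genes are not reported here.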

Additional observations from a re-analysis of the deposited data

Results flagged for a closer look

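The H2-A and H2-E chains also stood out in the barcodes left out of the main comparisons. The 373 PPARg-low barcodes left out for their mitochondrial share held 23 H2-Aa, H2-Ab1 and H2-Eb1 UMIs of 325491, or 70.7 CPM (44.8 to 106), in 8 barcodes, with 15 in 1 of them. The 269 PPARg-negative barcodes left out held 0 of 217143 UMIs, or 0 CPM (0 to 17.0). Kept PPARg-low cells had 6.55 CPM and kept PPARg-negative cells 15.1 CPM. The barcode with 15 chain UMIs also had 11 B cell marker UMIs, and its part in the difference was not tested.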

How the results depend on the processing

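No paired analysis was possible because each group is 1 library and the labels carry no replicate numbers; no replicate could be left out either. Ratios are PPARg-low over PPARg-negative. The class I chain ratio of 1.66 was 1.63 in cells with 500 or more genes, 1.33 with TMM scaling, 1.39 with totals without ribosomal and mitochondrial genes, 1.05 in ribosome-poor cells, 1.28 in ribosome-rich cells and 1.74 without cells holding a marker UMI of another cell type. B2m, at 1.57, was 1.25 with TMM, 1.31 with the reduced totals, 1.15 in ribosome-poor cells and 1.25 among ribosome-rich ones. The count of 7 higher class I chains became 1 with TMM, 3 with the reduced totals, 0 in ribosome-poor cells, 2 in ribosome-rich cells and 1 at a size of 2. The 7 higher pathway genes became 1, 2, 0, 2 and 0 in the same settings. When every cell had equal weight no interval was computed and calls went by size alone. By that looser rule 1 chain was lower (H2-Q2, with 1 and 10 UMIs). Outside the main and the ribosomal classes, shares of all measured genes called were not counted. The median log2 ratio of all genes, 0.30, was -0.02 with TMM and 0.04 with the reduced totals. In ribosome-poor cells H2-M3 (0.992), H2-Q10 (0.746), H2-T23 (0.963) and Tapbp (0.864) reversed.

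The class II ratio of 2.90 was 2.32 with TMM, 2.43 with the reduced totals, 1.80 in ribosome-poor cells, 2.30 in ribosome-rich cells, 3.45 without the cells of 20 or more class II UMIs and 3.46 without marker cells. Without Cd74 it was 0.909, and 0.727 with TMM, 0.760 with the reduced totals and 1.11 without the cells of 20 or more class II UMIs. The 2 higher class II genes became 4 with equal weights, by size alone without an interval, and 4 without those cells. The 1 lower gene became 3 with TMM, 3 with the reduced totals, 2 in ribosome-poor cells and 2 among ribosome-rich ones. It became 2 with equal weights, again by size alone. With all barcodes, without the cells of 20 or more class II UMIs and without marker cells it became 0. The share of class II UMIs in marker cells, 0.462% in PPARg-low cells, was 0% with 2 or more marker UMIs, 2.91% with all barcodes, 53.5% with the wide list and 53.2% with both. In PPARg-negative cells, at 12.9%, it was 51.5% with the wide list and 50.1% with both. The share of cells with a Cd74 UMI was 40.8% without thinning, 29.4% at 1000 UMIs and 21.7% at 500 in PPARg-low cells, and 13.4% without thinning and 5.20% at 500 in PPARg-negative cells. Of the 31 members, 16 were called higher and 1 lower over all kept cells, against 23.9 and 4.29% of all measured genes. Of these called members, 12 no longer met the size rule with TMM, 9 with the reduced totals and 10 in the ribosome-rich cells. In ribosome-poor cells, where 27 members had a ratio, 10 of the 16 higher members no longer met it, besides the 4 that reversed. Of the higher members, Cd74 and H2-Oa were still called there. Pdia3 (0.889) and H2-Q4 (0.892), not called over all cells, were also below 1 there. Causes of these moves were not tested. The ratio of Cd74 stayed above 1.5 in all settings run.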
